A study of Sus scrofa with 12 samples.

Results

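Chromatin-associated RNAs (caRNAs) are transcripts that are found crosslinked to DNA in the nucleus, and their levels were compared here between the skeletal muscle of Large White pigs (LW), a commercial lean breed, and Meishan pigs (MS), a Chinese local breed. The RNAs were taken from the GRID-seq lists of 4 of the 12 samples of the study, replicates 1 and 2 of each breed. Each list pairs an RNA with the bins of DNA to which it was ligated, and it gives 1 whole number of reads for each RNA. All RNAs with a name were kept, which gave 737 RNAs over the 4 lists (459 and 545 per LW library, 460 and 571 per MS library). Unnamed transcripts were left out. Of the 737 RNAs, 308 were listed in all 4 libraries and were tested, 99 were listed in 3 libraries, 176 in 2 and 154 in 1.

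The tissue was the longissimus dorsi, a fast back muscle, of male piglets 2 weeks old, snap-frozen and then fixed. Neither group received a treatment or carried an engineered allele, and the groups differed in breed. The sources do not make clear whether the 2 libraries of a breed came from separate piglets. Breed and animal therefore cannot be told apart, and the p-values measure only the spread between libraries, which may be technical.

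In GRID-seq a bivalent linker joins an RNA to the DNA beside it in fixed nuclei, so that each read pair reports which RNA lay next to which locus. Most such RNAs are nascent pre-mRNAs still held at their own gene, and a few, such as spliceosomal small nuclear RNAs, spread over many chromosomes. In a muscle fibre the genes transcribed most are those of the sarcomere, of calcium release and uptake in the sarcoplasmic reticulum, and of glycolysis and mitochondrial oxidation, and fast and slow fibres use different isoforms of several of them. Because whole muscle was used, fewer fibres of one type and less RNA per fibre cannot be told apart.

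The lists held 8181721 and 9943666 reads on RNAs in LW and 7172517 and 9381797 in MS, of which 6551654, 7313126, 6101326 and 7404165 lay on the 308 shared RNAs. Levels are given below as reads per 1000000 of these shared reads (RPM). A fold change is the difference of log2 levels, LW minus MS, and negative values mean more RNA in MS. Summed over RNAs, the reads of replicates differed by more than sampling noise (chi-square per degree of freedom of 56.0 in LW and 82.2 in MS). A few RNAs weigh heavily in that sum, such as ABHD17A with 10874 and 1671 reads in LW and 13115 and 2075 in MS. All 4 libraries were counted as separate in the test, although the libraries of a breed may be technical replicates. They were nevertheless close, since the 2 libraries of a breed differed by under 0.1 on the log2 scale in both breeds for 263 of the 308 RNAs. Of 12 genes that define muscle fibres, 8 were listed in all 4 libraries, among them TTN, NEB, ACTA1, CKM and DES, whereas none of the 20 endothelial and mural, 19 immune or 8 erythroid marker genes was listed in any library.

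A large part of the caRNAs differed between the breeds. On all 6 scalings of the libraries that were tried, calls were more often towards LW for RNAs of calcium handling, of glycogen use and glycolysis, of the thick filament and M-band, of myogenic regulators and of splicing factors. The RNAs of the clock repressors CRY2 and PER1 were higher in MS, as were those of TCAP, FLNC and DES. The Z-disc list holding TCAP, FLNC and DES was called in both directions, 10 towards LW and 8 towards MS. Most tested stress-response RNAs, a group chosen after the values were seen, were also higher in MS. Of the 308 RNAs tested with edgeR's quasi-likelihood test, 161 (52.3%) stood higher in LW and 99 (32.1%) stood higher in MS at an adjusted p under 0.05, and 48 were not called. In all, 260 of 308 (84.4%) were called. The shares higher in LW for calcium handling and glycolysis were near that of all RNAs. The libraries of the breeds did not overlap for 171 RNAs higher in LW (55.5%) and 112 higher in MS (36.4%).

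The balance between the directions depended on the scale. The median fold change of all 308 RNAs was 0.13 on the scale of shared reads and 0.00 with TMM factors, while a few RNAs took a larger share of the MS reads (given further on). With TMM factors 136 RNAs were called higher in LW (44.2%) and 131 higher in MS (42.5%). Under all 6 scalings tried, 83 RNAs were called higher in LW (26.9%) and 83 higher in MS (26.9%), and these are referred to as called on every scale.

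**Figure D1:**
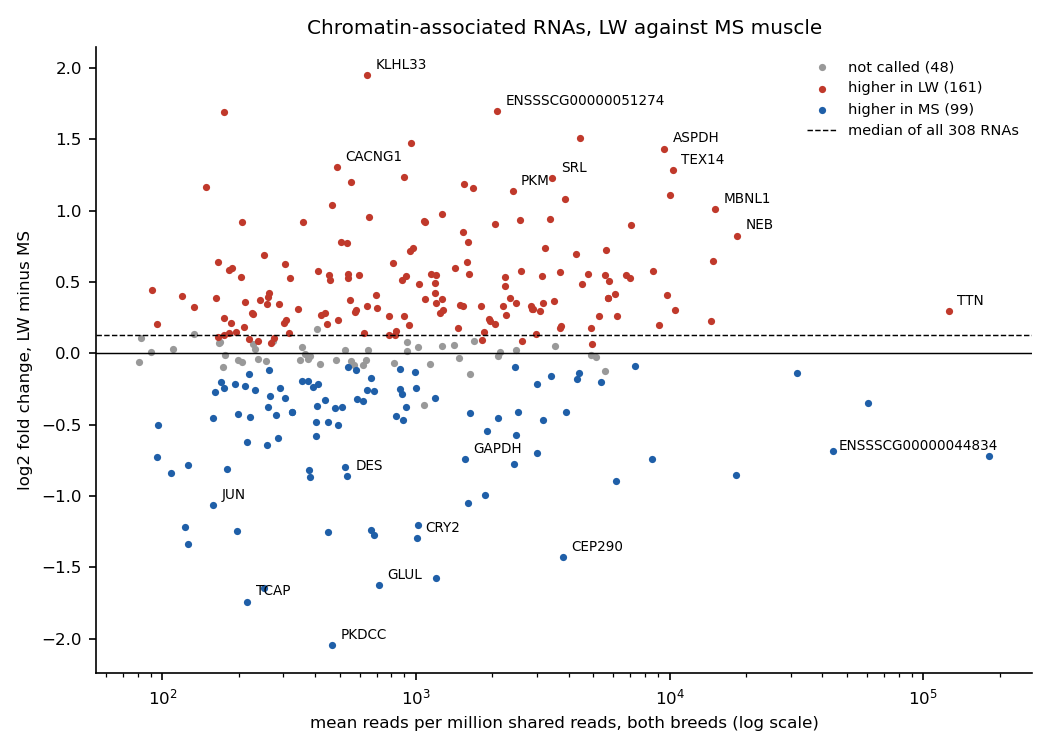
Log2 fold change (LW minus MS) of the 308 RNAs listed in all 4 libraries against their mean level in RPM of shared reads (log scale), coloured by the edgeR call at an adjusted p under 0.05. The 161 RNAs higher in LW lie above 0 and the 99 higher in MS below, TTN and ENSSSCG00000044834 lie far to the right, and the dashed line marks the median of all RNAs, 0.13.

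The 10 largest differences towards MS were found for genes of varied function. PKDCC, which encodes a secreted tyrosine kinase, stood at 188 and 177 RPM in LW against 752 and 751 in MS. This was a 4.12-fold difference (log2 fold change -2.04, SE 0.04, adjusted p = 3.08e-07). TCAP, the telethonin that caps titin at the Z-disc, stood at 99.8 and 99.5 RPM in LW against 342 and 325 in MS (log2 fold change -1.74, SE 0.044, adjusted p = 4.14e-07). In both cases the 2 libraries of a breed lay close together and far from those of the other breed. ENSSSCG00000028322 has no symbol in the lists and overlaps the antiproliferative gene BTG2 on chromosome 9 (64031854 to 64037769, Sscrofa11.1). It stood at 121 and 123 RPM in LW against 382 and 380.3 in MS (log2 fold change -1.64). GLUL, glutamine synthetase, differed 3.08-fold and SMO, the Hedgehog signal transducer, 2.98-fold (log2 fold changes -1.62 and -1.58). CEP290, a protein of the ciliary transition zone, had the most reads of this group, with 2039 and 2075 RPM in LW against 5555 and 5505 in MS (log2 fold change -1.43, SE 0.024, adjusted p = 1.91e-07). Also among the 10 largest were HSP90AB1, a cytosolic chaperone (-1.34), CRY2 (-1.30), the Z-disc associated IGFN1 (-1.27) and the translation elongation factor EEF2 (-1.25). All 10 were called on every scale. The HSP90AB1 span also covers all or part of SLC35B2 in RefSeq, whose strand was not given, so their reads may be mixed. The same holds for RNAs described below: MYOM2 with KBTBD11, ACTN3 with CTSF, NFIX with LYL1 and ASB2 with FAM181A.

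Towards LW, the largest difference was that of KLHL33, a Kelch-like family gene on chromosome 7 (78470321 to 78479963), with 1015 and 1026 RPM in LW against 275 and 255 in MS, or 3.85-fold (log2 fold change 1.95, SE 0.041, adjusted p = 5.23e-07). ENSSSCG00000051274, whose span on chromosome 7 (121656237 to 121691190) holds the maternally expressed long non-coding RNA MEG3, stood at 3228 and 3151 RPM in LW against 1012 and 958 in MS (log2 fold change 1.69, SE 0.033, adjusted p = 3.85e-07). Of the 10, 3 encode proteins of calcium handling, which are described with their group below: CACNG1 (1.30), TMEM38A (1.24) and SRL (1.23). The snRNA U5 copy on chromosome 1 (163334929 to 163335045), a part of the spliceosome, stood at 6522 and 6567 RPM in LW against 2349.7 and 2242 in MS (log2 fold change 1.51). ASPDH, named for an aspartate dehydrogenase domain, differed 2.7-fold with 13981 and 13792 RPM in LW against 5197 and 5077 in MS, and TEX14, known from germ cell bridges, 2.44-fold with 14799.8 and 14404 RPM in LW against 6076 and 5902 in MS. The span of ASPDH also covers part of JOSD2 in RefSeq, whose strand was not given, so their reads may be mixed. ENSSSCG00000036379 (1.69) on chromosome 3 and ENSSSCG00000036538 (1.47) on chromosome 4, neither paired with a symbol, complete the 10. All 10 were called on every scale. The 10 in each direction were picked among called RNAs whose libraries did not overlap between the breeds, so that separation is no further result.

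**Figure D2:**
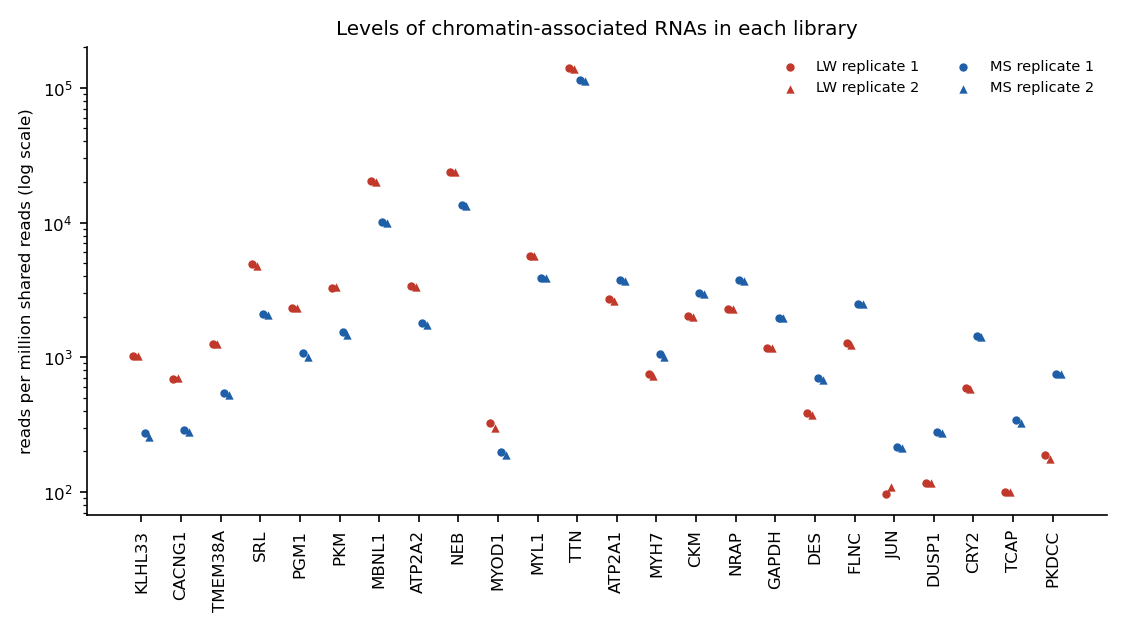
Level of 24 RNAs in each of the 4 libraries, in RPM of shared reads on a log scale, with LW in red, MS in blue, circles for replicate 1 and triangles for replicate 2. From KLHL33 to TTN both LW libraries lie above both MS libraries, and from ATP2A1 to PKDCC both lie below.

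Over all muscle lists together 110 RNAs were tested, 58 higher in LW and 33 higher in MS, shares near the 52.3% and 32.1% of all RNAs, with a median log2 fold change of 0.18. With TMM factors the counts were 56 and 49. The sarcomere did not move as 1 unit. Of the 9 tested RNAs of the thick filament and M-band, 7 were higher in LW and 2 higher in MS, with a median log2 fold change of 0.38 beside 0.13 for all RNAs. MYOM1 and MYOM2, the myomesins that crosslink myosin at the M-band, were 1.66-fold and 1.62-fold higher in LW (log2 fold changes 0.73 and 0.70), with 4075 and 3995 RPM in LW against 2454 and 2397 in MS for MYOM1. MYL1, the fast essential light chain, stood at 5688 and 5647 RPM in LW against 3864 and 3847 in MS (log2 fold change 0.56, SE 0.022, adjusted p = 9.83e-07). The 2 RNAs in the other direction were MYBPC2, the fast myosin-binding protein C (-0.21), and MYH7, the slow myosin heavy chain, with 757 and 727 RPM in LW against 1049 and 1005 in MS (log2 fold change -0.47, SE 0.035, adjusted p = 0.000103). The MYH7 span also covers all or part of CMTM5 and LOC100736765 in RefSeq, whose strands were not given, so their reads may be mixed. TTN, the giant titin that spans from Z-disc to M-band and the RNA of second most reads here, was higher in LW by 0.30 (SE 0.022, adjusted p = 0.000555). This call was not made on every scale, and the fold change ranged from 0.03 to 0.30 over the scalings. The TTN reads are shared in part with 3 unnamed RNAs that overlap it on the same strand.

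The thin filament was split evenly, with 5 of 13 tested RNAs higher in LW and 5 higher in MS, beside 52.3% and 32.1% of all RNAs. The median was -0.04. With TMM factors the split was 4 and 9. NEB, the nebulin ruler of the thin filament, stood at 23723 and 23510.5 RPM in LW against 13457 and 13207 in MS (log2 fold change 0.82, SE 0.022, adjusted p = 4.45e-07). CFL2, the muscle cofilin (0.58), and TPM1, a tropomyosin (0.55), were also higher in LW. NRAP, which serves in myofibril assembly, went the other way with 2293 and 2275 RPM in LW against 3739 and 3692 in MS (log2 fold change -0.70, SE 0.023, adjusted p = 9.48e-07). TNNT1, the slow troponin T (-0.41), and KLHL40, which stabilises thin filament proteins (-0.42), were likewise higher in MS. ACTA1, the skeletal actin, differed by only 0.18, and this call was not made on every scale.

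At the Z-disc 10 of 20 tested RNAs were called towards LW and 8 towards MS, shares near the 52.3% and 32.1% of all RNAs. The median was 0.06, and with TMM factors the counts were 10 and 10. The 3 differences of largest size were all towards MS. FLNC, the filamin that links the Z-disc to the membrane, stood at 1279 and 1232 RPM in LW against 2504 and 2488 in MS (log2 fold change -0.99, SE 0.028, adjusted p = 9.95e-07). DES, the desmin intermediate filament, stood at 385 and 372 RPM in LW against 699.8 and 676 in MS (log2 fold change -0.86, SE 0.035, adjusted p = 3.82e-06), next to TCAP described above. Towards LW stood CAPN3, the muscle calpain (0.78), ACTN3, the alpha-actinin of fast fibres, with 1005 and 972 RPM in LW against 642 and 634 in MS (0.63), and MYOZ3, a calsarcin (0.62). ACTN2, the alpha-actinin of all fibres and the Z-disc RNA of most reads, differed by -0.09 (adjusted p = 0.00697), which was not called on every scale. Over the 6 scalings 7 Z-disc RNAs were called towards each breed throughout, beside 26.9% of all RNAs in each direction.

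RNAs of excitation-contraction coupling and calcium handling were called in shares not far from those of all RNAs (52.3% higher in LW), with 10 of 17 higher in LW, 3 higher in MS and a median of 0.31. With TMM factors the counts were 10 and 6, and 8 and 7 without the 5 RNAs of most reads in the scale. Membrane depolarisation opens the dihydropyridine receptor, which gates calcium release from the sarcoplasmic reticulum, and pumps return the calcium. CACNG1, the gamma subunit of that receptor, stood at 693 and 699 RPM in LW against 286 and 278 in MS (log2 fold change 1.30, SE 0.033, adjusted p = 6.12e-07). TMEM38A, a potassium channel of the reticulum that balances charge during release, stood at 1261 and 1257 RPM in LW against 541 and 526 in MS (log2 fold change 1.24, SE 0.029, adjusted p = 9.83e-07). SRL, the luminal calcium-binding sarcalumenin, stood at 4912 and 4761 RPM in LW against 2082 and 2042 in MS (log2 fold change 1.23, SE 0.027, adjusted p = 3.08e-07). Part of the SRL span overlaps ADCY9 on the same strand. These differences were 2.47-fold, 2.36-fold and 2.35-fold.

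The 2 calcium pumps of the reticulum moved in opposite directions. ATP2A1, the SERCA1 pump of fast fibres, was higher in MS with 2709 and 2625 RPM in LW against 3717 and 3665 in MS (log2 fold change -0.47, SE 0.026, adjusted p = 7.4e-06). ATP2A2, the SERCA2 pump of slow fibres, was higher in LW with 3408 and 3317 RPM in LW against 1799 and 1728 in MS (log2 fold change 0.93, SE 0.03, adjusted p = 1.2e-06). Both calls were made on every scale. SLN, the sarcolipin that inhibits these pumps (0.55), CASQ1, the calsequestrin of fast fibres (0.54), and BIN1, which shapes T-tubules (0.54), were higher in LW. So was SCN4A, the muscle sodium channel and the only RNA tested from the neuromuscular junction list (0.49). The receptor's pore subunit CACNA1S differed by 0.05 and was not called, and HRC and JPH1 were called towards MS at -0.20 and -0.16, though not on every scale.

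Of the dystrophin complex and membrane repair list, 5 RNAs were tested, 3 were higher in LW and none in MS, beside 52.3% and 32.1% of all RNAs. The median was 0.14, close to that of all RNAs. These counts turned with the scale, to 2 and 1 with TMM factors, 2 and 2 with a scale from RNAs of mostly local signal, and 2 and 3 without the 5 RNAs of most reads in the scale. ITGA7, the laminin-binding integrin of muscle, stood at 543 and 534 RPM in LW against 372 and 365 in MS (log2 fold change 0.55, SE 0.032, adjusted p = 1.17e-05). SPTBN1, a spectrin (0.35), and CAVIN1, a caveolar coat protein (0.14), were not called on every scale, and CAVIN1 changed sign to -0.12 at the lowest.

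**Figure D3:**
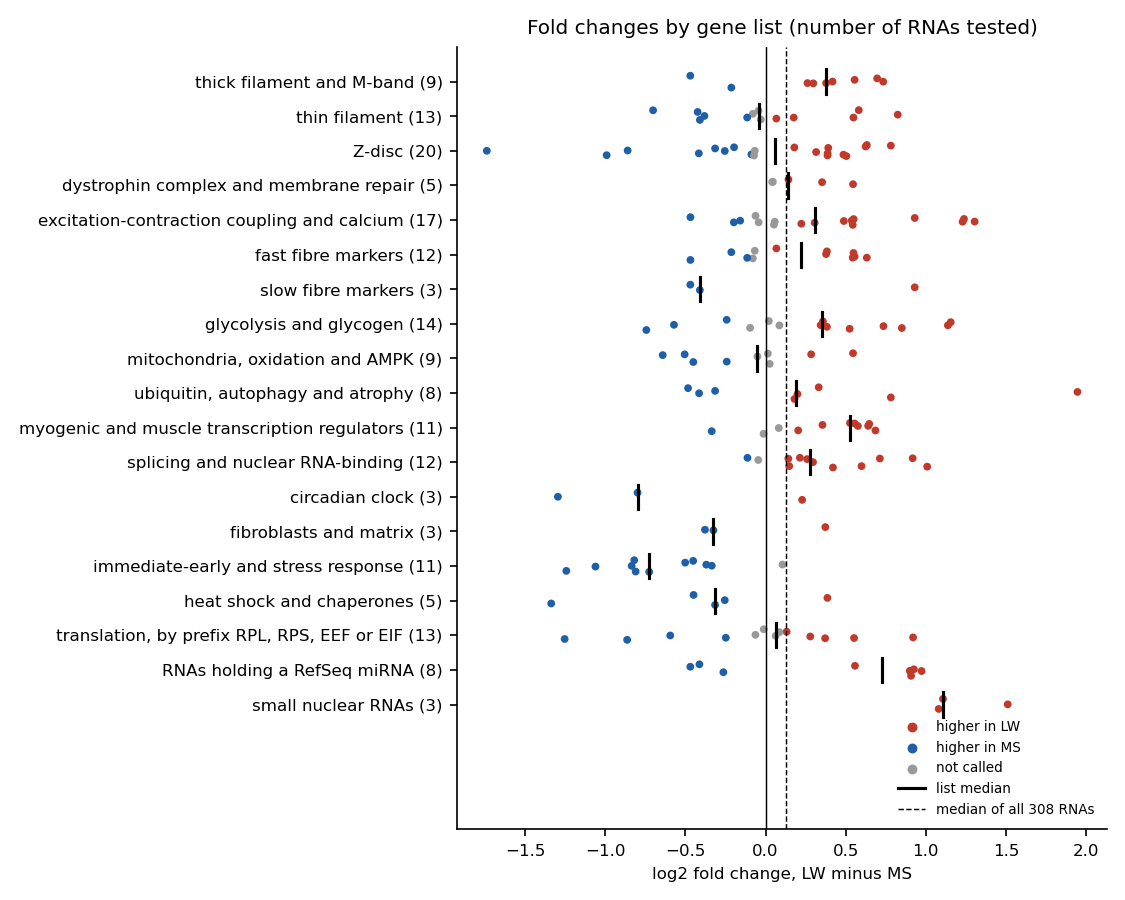
Log2 fold change (LW minus MS) of each tested RNA in the gene lists with at least 3 tested RNAs, 1 point per RNA, coloured by the edgeR call, with the list median as a black bar, 0 as a solid line and the median of all 308 RNAs as a dashed line. Calcium handling, glycolysis, myogenic regulators and splicing lie mostly to the right, immediate-early genes lie to the left except for CEBPB, and the Z-disc and thin filament spread to both sides.

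Fibre-type markers gave no single direction. Of 12 fast fibre markers, 7 were higher in LW (among them ACTN3, MYL1, TPM1, CASQ1 and PFKM) and 3 higher in MS (ATP2A1, MYBPC2 and TNNI2). These shares were not far from the 52.3% and 32.1% of all RNAs. The median was 0.22, and with TMM factors the split was 6 and 6. TNNI2 overlaps TNNT3 on the same strand, so their reads may be shared in part. Of the 3 slow fibre markers tested, MYH7 and TNNT1 were higher in MS and ATP2A2 was higher in LW. ENSSSCG00000029441, an RNA on chromosome 12 (55190429 to 55278539) that spans MYH2, MYH1 and MYH4, the fast myosin heavy chains, was singled out after its values were seen. It stood at 10360.1 and 10249 RPM in LW against 7027 and 6822 in MS (log2 fold change 0.57, SE 0.024, adjusted p = 1.81e-06). As the lists give 1 number for the whole span, the 3 genes could not be told apart.

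In the glycolysis and glycogen list, which also holds the creatine kinase CKM, 8 of 14 RNAs were higher in LW and 3 higher in MS. The median was 0.35, and with TMM factors the counts were 8 and 5. The share higher in LW was again near the 52.3% of all RNAs. PGM1, phosphoglucomutase, which links glycogen to glycolysis, stood at 2325 and 2301 RPM in LW against 1075 and 1001 in MS (log2 fold change 1.16, SE 0.037, adjusted p = 1.81e-06). PKM, pyruvate kinase, stood at 3286 and 3319 RPM in LW against 1528 and 1474 in MS (log2 fold change 1.14, SE 0.027, adjusted p = 5.23e-07). PPP1R3A, the glycogen-targeting phosphatase subunit, stood at 1961 and 1988 RPM in LW against 1119 and 1071 in MS (log2 fold change 0.85). LDHA, lactate dehydrogenase A (0.74), and GYS1, muscle glycogen synthase (0.52), were higher in LW on every scale. The 3 in the other direction were GAPDH with 1173 and 1162 RPM in LW against 1958 and 1953 in MS (log2 fold change -0.74, SE 0.025, adjusted p = 2.05e-06), CKM, the creatine kinase (-0.57), and the muscle enolase ENO3 (-0.24, not called on every scale). PYGM, the glycogen phosphorylase, was not called (0.09). PGM1 shares part of its span with EFCAB7 on the same strand.

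Mitochondrial and oxidative RNAs showed the reverse balance, with 2 of 9 higher in LW and 4 higher in MS, beside 52.3% and 32.1% of all RNAs. The median was -0.05, and with TMM factors the counts were 2 and 7. SLC25A3, the phosphate carrier, stood at 211 and 194 RPM in LW against 325 and 306 in MS (log2 fold change -0.64, SE 0.054, adjusted p = 5.18e-05). SLC25A4, the ADP/ATP carrier of muscle, stood at 416 and 399 RPM in LW against 580.4 and 576 in MS (log2 fold change -0.50). PPARD, a nuclear receptor of fatty acid oxidation (-0.45), and ATP5F1B, the beta subunit of ATP synthase (-0.24), were higher in MS as well. COQ8A, which serves in coenzyme Q synthesis, was higher in LW (0.55), as was IDH2 (0.28), the latter not on every scale.

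Myogenic and muscle transcription regulators had the highest median of the muscle lists with at least 4 RNAs tested (0.53). Of 11 tested, 8 were higher in LW and 1 higher in MS, beside 52.3% and 32.1% of all RNAs. The counts were 7 and 4 without the 5 RNAs of most reads in the scale. MYOD1, the master regulator of the muscle lineage, stood at 323 and 298 RPM in LW against 197 and 189 in MS (log2 fold change 0.69, SE 0.049, adjusted p = 2.57e-05). ZBTB16, a zinc finger repressor and the regulator of most reads, stood at 18155 and 17989.7 RPM in LW against 11679.8 and 11401 in MS (log2 fold change 0.65, SE 0.023, adjusted p = 9.85e-07). NFIX, which drives the embryonic to fetal switch of myogenesis, stood at 1948 and 1922 RPM in LW against 1264 and 1218 in MS (log2 fold change 0.64). MAF (0.58), MEF2D (0.56) and EYA4 (0.53) were also higher in LW on every scale. NR4A1, an orphan nuclear receptor induced by activity, was the exception, higher in MS (-0.34).

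RNAs of splicing and nuclear RNA-binding proteins were higher in LW in 10 of 12 and in MS in 1, beside 52.3% and 32.1% of all RNAs. The median was 0.28. The counts were 7 and 2 with TMM factors and 5 and 4 without the 5 RNAs of most reads. On every scale 5 were called towards LW and none towards MS. MBNL1, the splicing factor of muscle maturation, stood at 20369.8 and 20106 RPM in LW against 10121 and 9991 in MS, or 2.01-fold (log2 fold change 1.01, SE 0.022, adjusted p = 2.5e-07). RBM38 (0.92) and SRRM2, a scaffold of nuclear speckles (0.71), followed. RBM24, a muscle splicing regulator, was the 1 called towards MS (-0.11, adjusted p = 0.0325, not on every scale). Circadian clock RNAs were tested for 3 genes. CRY2, a repressor of the clock, stood at 588 and 579 RPM in LW against 1445 and 1418 in MS (log2 fold change -1.30, SE 0.028, adjusted p = 7.56e-07), and PER1, its partner, was higher in MS as well (-0.80). RORA, a nuclear receptor that activates clock genes, was higher in LW by 0.23, which turned to -0.04 when the 5 RNAs of most reads were left out of the scale.

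In the ubiquitin, autophagy and atrophy list 5 of 8 RNAs were higher in LW and 3 higher in MS, not far from the 52.3% and 32.1% of all RNAs. The median was 0.19, beside 0.13 for all RNAs. The counts turned to 3 and 5 without the 5 RNAs of most reads in the scale and to 2 and 3 with all listed reads. TRIM63, the atrophy ubiquitin ligase MuRF1, stood at 329 and 345 RPM in LW against 480.4 and 463 in MS (log2 fold change -0.48, SE 0.039, adjusted p = 4.74e-05). FOXO1, a transcription factor that induces it, was higher in MS (-0.41), as was HSPA8, a constitutive chaperone of selective autophagy (-0.31). FOXO3, a close relative of FOXO1, went the other way (0.33), together with KLHL33 and CAPN3. Of the 5 LW calls, those of KLHL33 and CAPN3 were made on every scale, whereas KLHL31 (0.20) and ASB2 (0.18) turned negative on some. Growth factor and insulin signalling was covered by 2 RNAs, PIK3R1, a regulatory subunit of phosphoinositide 3-kinase (-0.54), and SMAD3, a TGF-beta effector (-0.09), both higher in MS, SMAD3 not on every scale.

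The next groups were chosen after the values were seen, so their direction is a description. Of 11 tested immediate-early and stress-response RNAs, 10 were higher in MS on every scale and none was higher in LW, with a median of -0.73. Over all RNAs 26.9% were called towards each breed on every scale, the share to set beside this and the next groups. Immediate-early genes are induced within minutes by growth factors, contraction or stress. DUSP1, a phosphatase that ends MAP kinase signalling, stood at 118 and 116 RPM in LW against 281 and 273 in MS (log2 fold change -1.24, SE 0.041, adjusted p = 7.75e-07). JUN, a subunit of the AP-1 factor, stood at 96.9 and 108 RPM in LW against 216 and 213 in MS (log2 fold change -1.06, SE 0.059, adjusted p = 1.05e-05). DDIT4, an inhibitor of mTORC1 (-0.84), TOB1 (-0.82), the mRNA decay factor ZFP36L1 (-0.81) and ATF4, the effector of the integrated stress response (-0.73), had intermediate differences. CEBPB was not called (0.11). Of the 22 RNAs of this list that were listed anywhere, a further 8 were listed in both MS libraries and in neither LW library (FOS, ATF3, NR4A3, CCN1, KLF2, RHOB, GADD45G and CDKN1A). None showed the reverse pattern. Over all 737 named RNAs, 85 showed this pattern and 69 the reverse. An RNA that is not listed is not shown to be absent.

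Of 5 heat shock and chaperone RNAs, 4 were higher in MS on every scale (HSP90AB1, DNAJB5, HSPA8 and HSPB8) and HSPA5, the chaperone of the endoplasmic reticulum, was higher in LW (0.39) on some scales, with no call on 3 of the 6. HSP90AB1 stood at 74.5 and 68.5 RPM in LW against 184 and 178 in MS. RNAs of ribosomal proteins and translation factors had no common direction. Of 13 tested, 5 were higher in LW and 4 higher in MS, beside 52.3% and 32.1% of all RNAs. The median was 0.06, and with TMM factors the counts were 4 and 6. EEF2 stood at 271 and 259 RPM in LW against 642 and 622 in MS and EEF1A2, the elongation factor 1 alpha of muscle, was higher in MS (-0.86), whereas RPL23 (0.92) and RPL3 (0.55) were higher in LW.

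Among RNAs that hold a microRNA annotated in RefSeq, 5 of 8 were higher in LW and 3 higher in MS, all on every scale. The host of MIR1 and MIR133A-1 on chromosome 17 (ENSSSCG00000050060, 61890965 to 61933235) stood at 9238 and 9048 RPM in LW against 4929 and 4867 in MS (log2 fold change 0.90, SE 0.023, adjusted p = 3.58e-07). The host of MIR206 and MIR133B on chromosome 7 (ENSSSCG00000042203, 45967061 to 45980798) stood at 2699 and 2636 RPM in LW against 1441 and 1402 in MS (log2 fold change 0.91, SE 0.028, adjusted p = 1.13e-06). These 4 microRNAs are the classic ones of striated muscle. The overlapping RNAs AVIL and CTDSP2, which share reads and hold MIR26A, were higher in LW by 0.97 and 0.93, and the host of MIR30D and MIR30B by 0.56. In MS, MYH7, which holds MIR208B, ARPP21 with MIR128-2 (-0.41) and ENSSSCG00000031608 with MIR486-1, which overlaps ANK1 (-0.26), were higher. The values are of the host transcript and not of the mature microRNA.

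The 3 small nuclear RNAs tested were all higher in LW on every scale, with a median of 1.11. Beside the U5 copy on chromosome 1, a U5 copy on chromosome 6 (166589788 to 166589903) stood at 5318 and 5195 RPM in LW against 2498 and 2474 in MS (1.08). A U4 copy on chromosome 14 (40286512 to 40286652) stood at 13563 and 13760.1 RPM in LW against 6279.9 and 6402 in MS (1.11). A further U4 copy and a further U5 copy were listed in both LW libraries and in neither MS library, as were 69 of all 737 named RNAs. The copies are nearly identical in sequence, and short reads can be assigned to the wrong copy, so the level of a single copy is uncertain. Of the imprinted gene list no RNA was tested, and IGF2, the fetal growth factor, was listed in LW only (6234 and 6385 reads). ENSSSCG00000050649, which has no symbol and is not on that list, lies 84.7 kb from IGF2 on chromosome 2 (1381838 to 1384446). It was higher in MS with 1109 and 991 RPM in LW against 2230.5 and 2105 in MS (log2 fold change -1.05). The RNA whose span holds MEG3, described above, was higher in LW.

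A few RNAs held much of the reads. The 10 RNAs of most reads took 48.3% and 48.8% of the shared reads in LW against 56.5% and 57.2% in MS. The first 5 took 39.2% and 39.7% in LW against 49.3% and 50.0% in MS. The breeds did not overlap, but with 2 libraries against 2 the exact permutation test (two-sided) cannot go below p = 0.333, the value obtained. The difference came mainly from ENSSSCG00000044834, an RNA on chromosome 7 (10797875 to 10925845) without a symbol, which held 13.8% and 13.7% of the shared reads in LW against 22.8% and 22.6% in MS (log2 fold change -0.72, SE 0.021, adjusted p = 2.1e-05). CMTM4 was higher in MS as well (-0.85). ENSSSCG00000048037 (-0.35) and ENSSSCG00000048856 (-0.14, not called on every scale) followed that direction, whereas TTN, NEB, MBNL1, ZBTB16 and RORA, also among the 10, were higher in LW as given above. For ENSSSCG00000048037 the libraries of a breed were further apart than for most RNAs, with 49873 and 57099 RPM in LW against 62367 and 73899.5 in MS.

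The DNA bins of the first 2 of these RNAs did not follow their reads. For ENSSSCG00000044834 the lists gave 223431 and 191755 bins in LW against 44248 and 42885 in MS on other chromosomes (bins of 1 kb), so that the breed with more reads had far fewer listed bins. TTN showed the reverse, with 108388 and 88354 bins in LW against 191680 and 157373 in MS and more reads in LW. For ENSSSCG00000048037 the bins did follow the reads, with 70630 and 133788 in LW against 142884 and 214480 in MS. ENSSSCG00000048856, CMTM4, NEB, MBNL1 and ZBTB16 likewise had more bins in both libraries of the breed with their higher level. The bins of RORA did not separate the breeds. A bin is listed only when its background-corrected signal reached the authors' limit, so bin numbers depend on that correction. Among RNAs of fewer reads, CEP290 had no bin on another chromosome in LW, and in MS it had 114 and 149 bins with 34.1% and 76.9% of its signal. The U5 copy on chromosome 1 had 385 and 582 bins in LW against 23 and 68 in MS. ASPDH had 3315 and 6248 bins in LW against 156 and 213 in MS on other chromosomes.

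**Figure D4:**
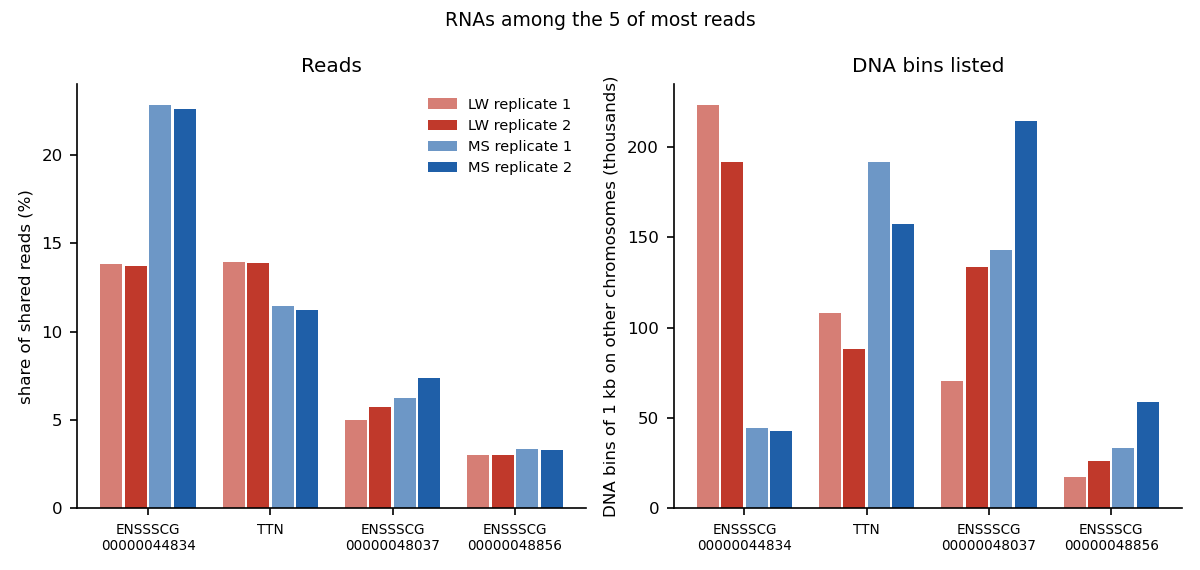
RNAs among the 5 of most reads in the 4 libraries (4 are shown), as their share of the shared reads (left, %) and as the number of 1 kb DNA bins listed for them on other chromosomes (right, in units of 1000), with 1 bar per library. ENSSSCG00000044834 has the higher bars in MS on the left and in LW on the right, and TTN has the opposite arrangement.

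Most RNAs had their signal near their own gene. In 249 of the 308 RNAs at least 50% of the DNA signal lay within 10 kb of the gene in all 4 libraries, and 222 RNAs had no bin on another chromosome in any library. The local share was lower in both LW libraries than in both MS libraries for 100 of the 161 RNAs higher in LW (62.1%), for 19 of the 99 higher in MS (19.2%) and for 132 of all 308 (42.9%). The reverse held for 6 of the 161 (3.7%), 22 of the 99 (22.2%) and 31 of all 308 (10.1%). The median local share of the RNAs higher in LW was 74.0% and 66.1% in LW against 85.9% and 78.9% in MS. ASPDH stood at 51.3 and 31.3% in LW against 92.5 and 84.9% in MS, MBNL1 at 19.4 and 15.8% in LW against 39.3 and 30.7% in MS and PGM1 at 65.1 and 59.5% in LW against 92.2 and 90.6% in MS. Among the RNAs higher in MS the median was 94.1% and 86.6% in LW against 91.5% and 84.9% in MS. Replicate 2 had the lower median in each breed, and it was also the deeper library, whose part in these shares was not tested. The bins listed for an RNA also depend on its reads, and the part of this in the shares was not tested.

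**Figure D5:**
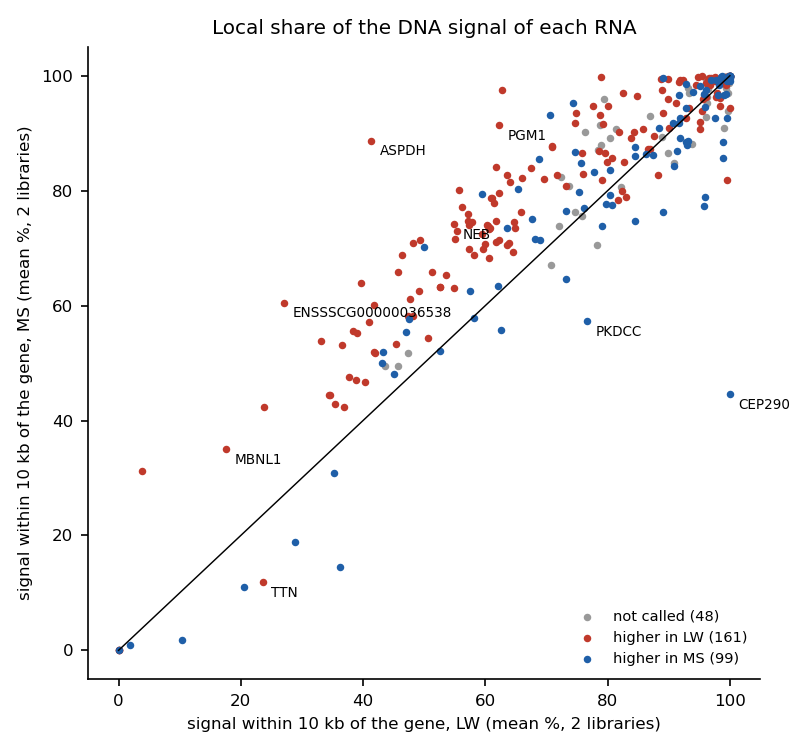
Share of the DNA signal of each of the 308 RNAs that lay within 10 kb of its own gene, as the mean of 2 libraries, in LW (x axis, %) and MS (y axis, %), coloured by the edgeR call on the reads, with the line of equal shares. Most of the 161 RNAs higher in LW lie above the line, and CEP290 and PKDCC lie below it.

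H3K27ac HiChIP loops, called in 4 other libraries of the same muscle and breeds, gave little contrast at the starts of these genes. An anchor of a loop within 1 kb of the gene start was found in at least 1 library for 149 of 161 RNAs higher in LW and 94 of 99 higher in MS. The summed loop score (-log10 of the adjusted p of the loops) was higher in both LW libraries than in both MS libraries for 30 of the 161 RNAs higher in LW, 11 of the 99 higher in MS and 51 of all 308. The reverse held for 11, 6 and 18. Loop scores of the 2 libraries of a breed could lie far apart, as for FLNC with 37.9 and 149 in LW and 57.3 and 111 in MS. This limits how often the breeds can separate by this measure. Across the 308 RNAs the fold change in RNA and the log2 difference in loop score had a Pearson correlation of 0.10 and a Spearman correlation of 0.11, and RNAs share their libraries and their depth. Loops at KLHL33, for example, numbered 2 and 5 in LW against 3 and 4 in MS.

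Many RNAs were listed in 1 breed only, 69 in both LW libraries and neither MS library, and 85 in both MS libraries and neither LW library. The RNAs of most reads in LW alone were TRDN, which encodes triadin of the calcium release complex (67305 and 73574 reads), the repressor ZBTB20 (64346 and 70545 reads), SGCD, a sarcoglycan of the dystrophin complex (57299 and 63255 reads), FOXP1, a forkhead repressor (37103 and 40184 reads), and ARHGAP10 (35494 and 38662 reads). In MS alone they included PDE7B, a cyclic AMP phosphodiesterase (37231 and 43755 reads), PDZRN3, a ubiquitin ligase (30437 and 35717 reads), PPARGC1A, the coactivator of mitochondrial biogenesis (22025 and 26233 reads), and SAMD4A, a translational repressor (19590 and 22956 reads). TRDN had 174 and 190.4 reads per kb of gene and PPARGC1A 183 and 218 reads per kb, beside medians of 163 and 153 over all named RNAs of the LW lists and 146 and 146 of the MS lists.

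Named after their values were seen, the LW lists also held the calcineurin subunit PPP3CA, PRKAG3, a muscle AMPK subunit, the coactivator PPARGC1B, FBP2, the fructose-bisphosphatase of muscle, SESN1 and ACTC1, the cardiac actin. The MS lists held TNNC1, the slow troponin C, FABP3, a fatty acid carrier of oxidative fibres, ACADVL, CKMT2, ANKRD1, CRYAB, XIRP1, KLHL41, NFATC1 and EGFR. Of the mitochondrial list 3 RNAs were in both LW libraries alone and 4 in both MS libraries alone, and of the Z-disc list none and 3. An RNA enters a list only after the authors' selection, whose limit is not given in the sources used here. The density of these RNAs was on the low side, with medians of 117 and 127 reads per kb in LW and 105 and 124 in MS beside 197, 220, 174 and 212 for the 308 shared RNAs. An RNA that is not listed is therefore not shown to be absent, and no fold change is given. When 1 library of a breed was enough, the numbers were 143 and 165. Without LW replicate 1 the LW number was 132, without MS replicate 2 it was 121, and without MS replicate 1 the MS number was 149.

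Markers of other cells were sparse. The summed level of the 7 fibroblast and matrix RNAs listed anywhere was 4479 and 4417 RPM in LW against 1564 and 4041 in MS, where an RNA that was not listed adds nothing. Of the fibroblast and matrix list 3 RNAs were tested, COL1A1 with 468 and 419 RPM in LW against 596 and 556 in MS (log2 fold change -0.38, SE 0.059, adjusted p = 0.00189), COL1A2 (-0.33) and SPARC, higher in LW (0.37, not on every scale). COL4A1 and COL4A2, the basement membrane collagens, were listed in LW alone. The satellite cell marker CDH15 was listed in LW alone and SDC4 in MS alone. Of the adipocyte list CEBPB was the 1 RNA tested (0.11, adjusted p = 0.301), and PLIN4, a lipid droplet protein, was listed in MS alone. The part of these cells in the differences above was not tested.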

How the data were processed

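GRID-seq libraries were analysed for longissimus dorsi muscle of LW and MS piglets, 2 per breed, grouped by the sample labels. The authors fixed the tissue, cut chromatin with AluI, split reads into RNA and DNA ends, aligned both ends to Sscrofa11.1 with Bowtie2 (version 2.2.5 per the labels) in local mode, removed ambiguous pairs with SAMtools (version 1.9), and selected chromatin-enriched RNAs against a background of non-specific contacts. The deposited lists hold, per RNA, a whole count of reads, and, per RNA and 1 kb bin of DNA, a background-corrected signal by the authors. The annotation version and the limit for listing an RNA are not given in the sources used here. The deposited HiChIP loop lists hold a p-value per loop, read as adjusted since all lie under 0.01, from 5 kb loops called per library by the authors. No other column of samples was found (0).

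From the counts, library sizes were set to the sum over the 308 shared RNAs, and LW and MS were compared with edgeR 4.0.16 (quasi-likelihood test, no normalisation factors, Benjamini-Hochberg adjusted p under 0.05) in R 4.3.3, checked on simulated data. SEs came from limma 3.58.1 on log2(RPM + 1). DESeq2 1.42.0, other scales, filters, a minimum fold of 1.2, the replicate number as a block, and leaving out each library were alternatives. RNAs without a symbol were named from the gene table of NCBI, or from RefSeq Sscrofa11.1 where spans overlapped by at least 80% both ways. RNAs were named by rule: the 10 largest changes in each direction among called RNAs without overlap, the 10 of most reads, and in each gene list the 3 largest called changes in each direction and the RNA of most reads (every called RNA in lists of up to 8 tested), the 5 of most reads listed in 1 breed alone, and TTN, and exceptions are marked in the text. The named RNAs and the gene lists were chosen with earlier results of these data known, and the stress, chaperone, translation, microRNA, small nuclear and imprinted groups after the values were seen. Between 7172517 and 9943666 reads per library lay on listed RNAs. The precision of a level follows from the reads of that RNA, and for RNAs of few reads counting error can be as large as the spread between libraries. Tx transcripts, the RNA-end samples and sequences were not used here, and some items are not reported here.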

Additional observations from a re-analysis of the deposited data

Results flagged for a closer look

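Outside the named RNAs, the lists held transcripts whose names start with Tx, which no comparison used. They took 2.87% and 2.81% of the listed reads in LW and 3.28% and 3.23% in MS, from 112 and 136 transcripts in LW and 59 and 78 in MS. Their share was higher in both MS libraries although fewer were listed there, and they were flagged because this signal lies outside the RNAs reported on.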

How the results depend on the processing

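The scale of the libraries moved the counts most. Higher in LW were 161 RNAs in the comparison as reported, 136 with TMM factors, 83 with all listed reads as the library size and 100 without the 5 RNAs of most reads in the scale, and higher in MS were 99, 131, 84 and 164. The median fold change of the 308 RNAs moved from 0.13 to 0.00 with TMM factors by construction. Tested against a fold of 1.2, 106 and 61 were called. Over the muscle lists, 37 in place of 58 were higher in LW with all listed reads, and in place of 33 higher in MS there were 59 without the 5 RNAs of most reads, 20 against a fold of 1.2, 52 with a scale from RNAs of mostly local signal, and 52 with TMM factors and the replicate block, the last 2 being alternatives chosen after seeing the data. Among the 85 named RNAs, CEBPB turned to -0.021 with TMM factors, -0.027 with DESeq2 size factors in edgeR, -0.027 in DESeq2 with its own size factors, -0.021 with TMM factors and the replicate block, -0.078 on the mostly local scale and -0.16 without the 5 RNAs of most reads. ASB2 turned to -0.00346 and CAVIN1 to -0.041 on the mostly local scale, and without the 5 RNAs of most reads ASB2 turned to -0.085, CAVIN1 to -0.12, KLHL31 to -0.066 and RORA to -0.037. No named RNA changed direction under the other settings, and 17 lost their call with all listed reads.

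Leaving out 1 library in turn gave 146 to 160 RNAs higher in LW and 95 to 102 higher in MS, with the lone library assumed to vary like the others. The counts of RNAs listed in 1 breed alone rose when a library was left out, since fewer lists then had to hold or lack an RNA. From 69, those in LW alone went to 72 to 132, with 132 without LW replicate 1 and 121 without MS replicate 2. From 85, those in MS alone went to 93 to 149, with 149 without MS replicate 1. When 1 library of a breed was enough, they were 143 and 165. The difference in the share of the first 5 RNAs stayed between -10.5 and -9.82 percentage points.

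The labels give the breeds the same replicate numbers but do not say that a number marks a batch or an animal. Deviations of same-numbered libraries had a Pearson correlation of 0.94 and a Spearman correlation of 0.15 across RNAs, resting on a few RNAs. With the replicate block, 160 and 106 RNAs were called, and all 85 named RNAs kept their direction and their side of the threshold. Alternatives not mentioned kept the counts within 1.5 times those reported.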

Other observations

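Replicates of the same number moved together for a few RNAs. ABHD17A, a depalmitoylase, had 10874 and 1671 reads in LW and 13115 and 2075 in MS, the higher value in replicate 1 of each breed, and LARP4, an RNA-binding protein, had 26747 and 47710 reads in LW and 26263 and 53589 in MS, the higher value in replicate 2. Neither was called between the breeds (adjusted p = 0.772 and 0.716, edgeR). The 2 libraries of a breed differed by over 0.3 on the log2 scale in both breeds for 3 RNAs, these and MTIF3. Likewise 14 RNAs were listed in replicate 2 of both breeds alone and 4 in replicate 1 of both breeds alone.

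RNAs higher in LW came from longer genes. Their median gene length was 29.0 kb, beside 14.2 kb for RNAs higher in MS and 17.2 kb for all 308, and the fold change and the gene length had a Spearman correlation of 0.24 and, with log2 length, a Pearson correlation of 0.14 across RNAs, which share their libraries. Neighbouring genes showed no common direction. Of 27 pairs of tested RNAs less than 100 kb apart, 13 lay on the same side of the median fold change.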
